A study of Rattus norvegicus with 7 samples.

Results

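The 3 gene models described here are ENSRNOG00000027963, ENSRNOG00000042407 and ENSRNOG00000040188, out of 29630 models counted in the rat vomeronasal epithelium. They were chosen by their mean CPM (counts scaled to the library total) over all animals, in which they rank 1, 2 and 4, and by lying within 79.3 kb of each other on chromosome 3. Levels and their order are therefore given as a description, with no test. The animals were 7 male rats of the inbred LEW/Crl strain, 8 weeks old and untreated as far as the labels say, flushed of blood with heparin before the epithelium was dissected. Each rat gave 1 polyA-selected library, and all belonged to 1 group, so that the 7 rats give the spread of each value and no condition is compared.

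The vomeronasal organ is a tubular chemosensory organ of the nasal septum that detects pheromones and other social cues. Its epithelium holds sensory neurons, each of which expresses one or a few vomeronasal receptor genes, together with supporting and basal cells, and glands beside it release fluid into its lumen. A whole-tissue library mixes the RNA of all cell types in the dissected piece, and in such data more cells of a type and more RNA per cell cannot be told apart. The files pair the identifiers of the 3 models with no gene name, so that neither their products nor the cells that make them can be given here.

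The libraries held 64085829 to 74924005 counts, and 16670 models were detected, that is, had at least 10 counts in 4 or more rats. The log2(CPM + 1) values of any pair of rats had r from 0.992 to 0.999, and all 21 pairs differed by more than counting noise (chi-square of 11.4 to 105.6 times the degrees of freedom). The 5 intact type 1 vomeronasal receptor (V1R) genes that the authors named, which are expressed by vomeronasal sensory neurons, were all present, from 0.488 ± 0.0662 CPM for NG_Vom1r44l to 9.51 ± 1.83 CPM for NG_Vom1r16 (SD, n = 7). Rat 7 stood apart in the present results: it had the lowest value of each of the 3 models, while its library size was inside the range of the others. Values are given with and without rat 7 where they rest on it.

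The first question was what the models share in structure, which the choice did not use. ENSRNOG00000042407 lies at 3858161–3861440 on the + strand (RGSC3.4, as in the files), ENSRNOG00000040188 at 3892990–3894995 on the - strand, and ENSRNOG00000027963 at 3934278–3937462 on the + strand. Gaps of 31.5 kb and 39.3 kb separate them in that order, so that the model of opposite strand sits between the other two. None of them overlaps another model on either strand.

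All 3 are short genes of closely similar build. ENSRNOG00000027963 has 7 exons of 135, 134, 71, 111, 102, 27 and 153 bases in the direction of transcription. ENSRNOG00000042407 also has 7 exons, of 91, 134, 71, 111, 102, 27 and 165 bases. Their 5 internal exons are thus equal in length and order, and no other model of the annotation has that series of internal exons. ENSRNOG00000040188 has 6 exons, of 84, 122, 71, 111, 102 and 26 bases, and shares those of 71, 111 and 102 bases with the other two. Its model stops at the 26-base exon, where the other two have a further last exon of 153 or 165 bases. Any reads beyond that point were not counted for it, which bears on every ratio that involves it.

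Introns differed where exons did not. The intron after the 71-base exon measured 601 bases in ENSRNOG00000027963, 372 in ENSRNOG00000042407 and 230 in ENSRNOG00000040188. In total the exons added up to 733, 701 and 516 bases and the introns to 2452, 2579 and 1490 bases, in the same order.

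**Figure D1:**
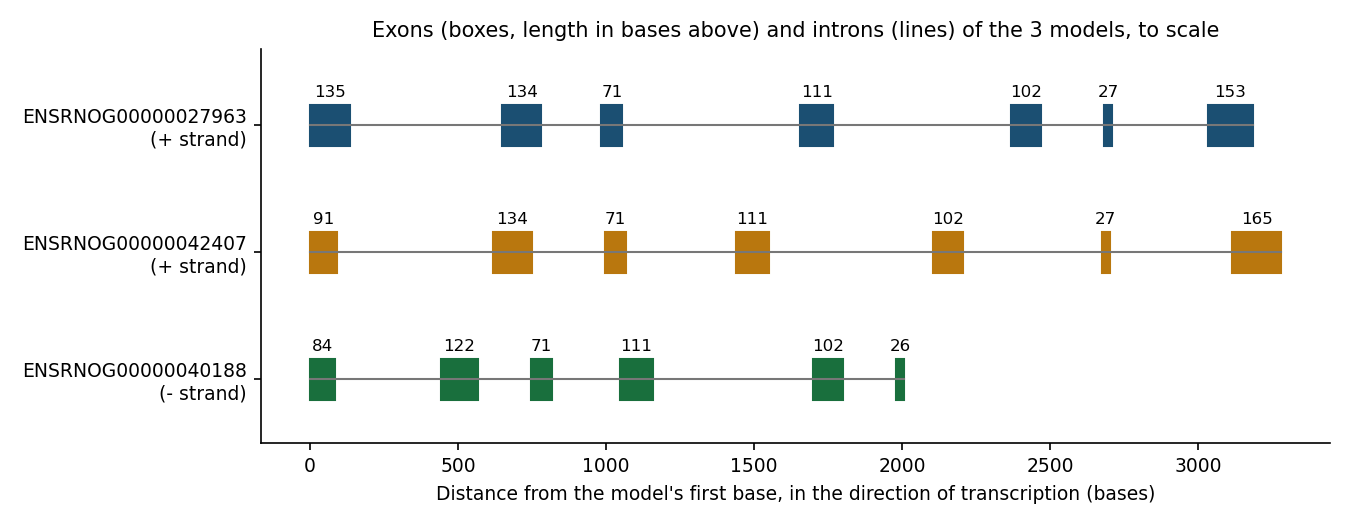
Exons (boxes, with their length in bases) and introns (lines) of the 3 models, drawn to scale from the first base of each in the direction of transcription. The exons of 71, 111 and 102 bases recur in all 3, and ENSRNOG00000040188 lacks a last exon like those of 153 and 165 bases.

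The exon run of 71, 111 and 102 bases was then searched for in all models, a search added after the exons had been seen. It occurred in 9 of the 29630 models, all of them on chromosome 3. The 3 models described here took 90.5% ± 0.343 of the counts of these 9 (SD, n = 7), between 90.0% in rat 6 and 90.9% in rat 2. Of the other 6, ENSRNOG00000043494, ENSRNOG00000026208 and ENSRNOG00000030708 (between 4.93 and 5.43 Mb) were abundant too, at 28080 ± 2249, 25514 ± 2722 and 12627 ± 1038 RPKM (CPM divided by the model's exon length in kilobases, SD, n = 7). The remaining 3 were near 0 in spite of the same exon run: ENSRNOG00000033761 had a mean of 11.1 counts per rat, ENSRNOG00000033020 7.71 and ENSRNOG00000028095 1.29. ENSRNOG00000028095 lies at 3836357–3841919, on the same strand as ENSRNOG00000042407 and the second model before it. The shared build therefore spans the highest levels of the tissue and levels close to no counts.

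The models between and beside the 3 were much lower. Directly before ENSRNOG00000042407, at a distance of 11.5 kb, ENSRNOG00000028074 had 0 to 2 counts per rat. After it, at 3.30 kb and on the same strand, the single-exon model ENSRNOG00000042556 had 15.0 ± 1.98 CPM, or 0.0108% of the counts of its neighbour. Next to ENSRNOG00000040188, ENSRNOG00000033758 had 192.3 ± 23.3 CPM at 6.36 kb (SD, n = 7 each).

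On the side of ENSRNOG00000027963, the 4-exon model ENSRNOG00000032607 stood 15.4 kb before it with 1234 ± 152.4 CPM, and the 2-exon model ENSRNOG00000042169 at 17.3 kb had 14.5 ± 0.914 CPM. Beyond it, at 23.0 kb, ENSRNOG00000043355 had 2266 ± 269.7 CPM (SD, n = 7 each), the highest of these neighbours and rank 16 of all models. Together the 4 models that lie between the 3 held 0.420% ± 0.0322 of the counts of the 3 (SD, n = 7). The neighbours were thus lower than the 3 models by a wide margin, but unlike each other in level. ENSRNOG00000032607 still ranked 27 and ENSRNOG00000033758 ranked 377 of all models, whereas ENSRNOG00000028074 ranked 20893.

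**Figure D2:**
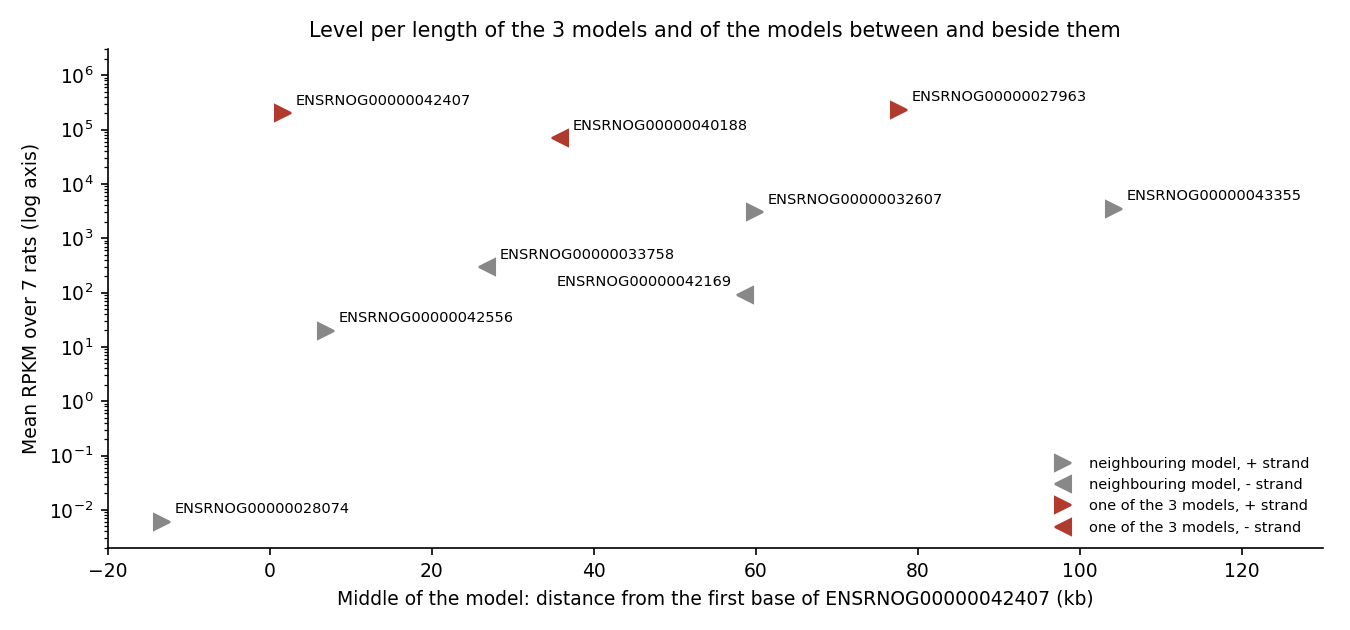
Mean RPKM over 7 rats (log axis) of the 3 models and of the 6 models between and beside them, by distance from the first base of ENSRNOG00000042407 in kb; the triangles point in the direction of transcription. The 3 models lie between 70008 and 232173 RPKM, and all 6 neighbours lie lower, the highest of them at 3470 RPKM.

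Levels were then described in each rat. ENSRNOG00000027963 had 9549800 counts in the lowest rat, a median of 11910033 and 13127913 in the highest. Its share of all counts was 14.7% in the lowest rat, 17.5% at the median and 17.7% in the highest. Wilson score 95% intervals of the lowest and the highest share were 14.73% to 14.74% and 17.67% to 17.69%. They cover counting error only and take each read as an independent molecule, which data without molecular identifiers cannot show. The lowest value was that of rat 7, and the other 6 rats lay between 16.7% and 17.7%.

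ENSRNOG00000042407 took 12.5% of the counts in the lowest rat, 14.1% at the median and 15.1% in the highest, with a mean of 14.0% ± 0.824 (SD, n = 7). Rat 7 was again the lowest, followed by rat 3 at 13.6%, and rat 1 was the highest. ENSRNOG00000040188 took 3.0% in the lowest rat, 3.77% at the median and 3.96% in the highest, with a mean of 3.61% ± 0.331 (SD, n = 7). Here too rat 7 was lowest and rat 3 next, at 3.4%, while rat 4 was highest.

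The order of the 3 models was the same in each rat: ENSRNOG00000027963 ranked 1, ENSRNOG00000042407 ranked 2 and ENSRNOG00000040188 ranked 4. Over rats, the shares of the first 2 overlapped, since ENSRNOG00000042407 in rat 1 (15.1%) exceeded ENSRNOG00000027963 in rat 7 (14.7%), and those of ENSRNOG00000040188 lay below both. The ranks on either side of the last were ENSRNOG00000020560 on chromosome 1 (190427623–190564079), rank 3 with 4.59% ± 0.299 of the counts, and ENSRNOG00000043494, rank 5 with 1.57% ± 0.126 (SD, n = 7 each). ENSRNOG00000020560 has 7056 exon bases, many more than the 3 models. Per length, the 3 models were ranks 1, 2 and 3 in every rat, at 232173 ± 14415, 199679 ± 11753 and 70008 ± 6408 RPKM, against 6505 ± 424.2 RPKM for ENSRNOG00000020560 (SD, n = 7 each), which then ranked 10.

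Together the 3 models held 34.6% ± 2.14 of all counts (SD, n = 7), from 30.2% in rat 7 to 36.5% in rat 1. Without rat 7 the mean was 35.4% ± 0.946 (SD, n = 6). This share enters every CPM of the tissue: dividing by the counts outside the 3 models raises the CPM of any other gene 1.43-fold in rat 7 and 1.57-fold in rat 1. Changes in the 3 models alone therefore move the CPM of all other genes by up to 1.10-fold between these rats.

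**Figure D3:**
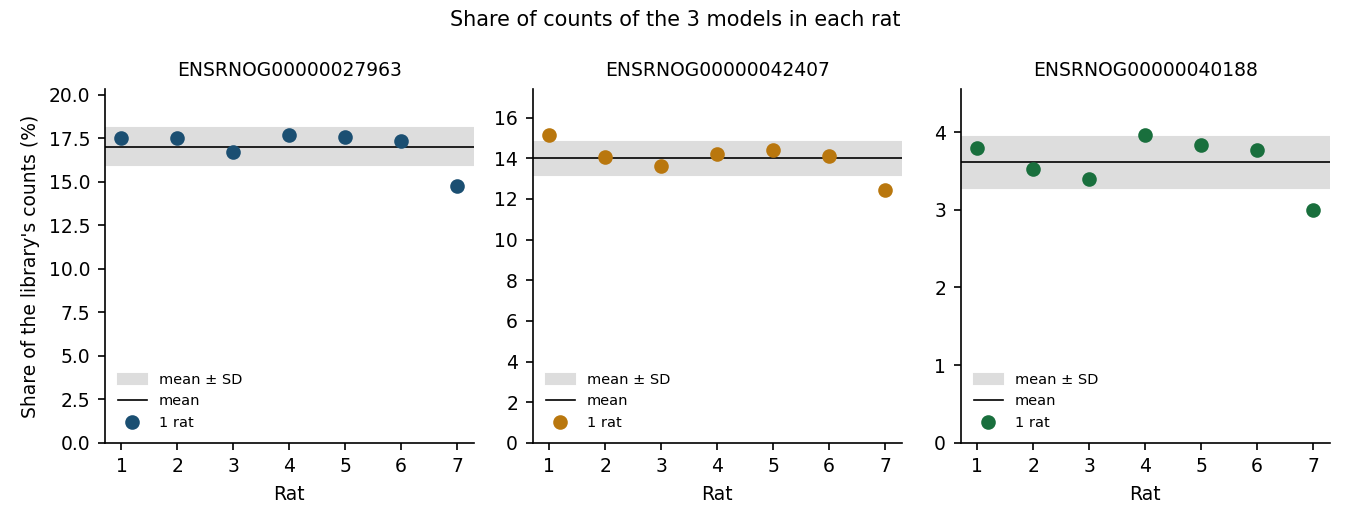
Share of each library's counts (%) taken by each of the 3 models in each of 7 rats (points), with the mean (line) and the mean ± SD (grey band). Rat 7 is the lowest in all 3 panels, at 14.7%, 12.5% and 3.0%.

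All 3 models held parts of reads that also mapped elsewhere, since each such read was credited in parts to several places and leaves decimals in the count. The count of ENSRNOG00000027963 lay 0.05 to 0.47 from a whole number and was not whole in any of the 7 rats. For ENSRNOG00000042407 the distance was 0.08 to 0.34, likewise not whole in 7 of 7 rats. ENSRNOG00000040188 was whole in 1 rat (rat 6) and at a distance of up to 0.41 in the others. Of all detected models, 30.8% had a non-whole count in at least 1 rat, and of the 200 models of highest mean CPM 67.5% did, so that shared reads are common among models of such levels. Decimals do not tell how many reads were shared, and a share of each level, of unknown size, may belong to other copies.

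Where the shared reads went could not be read from the decimals either. No model had a count that added with that of one of the 3 to a whole number in every rat, at a tolerance of 0.02, out of 7515 other models with a non-whole count. The sum of all 3 was not whole in any rat (0.06 to 0.48 from a whole number).

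Ratios between the models do not depend on the library total. Any reads divided among these models would enter both sides of a ratio, and their number could not be read from the decimals. The ratio of ENSRNOG00000042407 to ENSRNOG00000027963 in counts was 0.864, 0.802, 0.814, 0.805, 0.819, 0.812 and 0.845 in rats 1 to 7, with a mean of 0.823 ± 0.0228 (SD, n = 7). Rats 1 and 7 were the highest, and in no rat did ENSRNOG00000042407 reach ENSRNOG00000027963. Without rat 1, whose library correlated least with the others, the mean was 0.816 ± 0.0155 (SD, n = 6), and without rat 7 it was 0.819 ± 0.0226 (SD, n = 6). Per length, the mean was 0.861 ± 0.0239 (SD, n = 7).

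The ratio of ENSRNOG00000040188 to ENSRNOG00000027963 was 0.216, 0.201, 0.203, 0.224, 0.218, 0.217 and 0.204 in rats 1 to 7, with a mean of 0.212 ± 0.00902 (SD, n = 7). Rat 2 was the lowest and rat 4 the highest. Per length the ratio was 0.301 ± 0.0128 (SD, n = 7), because the model of ENSRNOG00000040188 is the shortest. Against ENSRNOG00000042407 it had 0.258 ± 0.0131 of the counts (SD, n = 7), with 0.241 in rat 7, the lowest, and 0.278 in rat 4, the highest. Without rat 7 the mean of this last ratio was 0.261 ± 0.0118 (SD, n = 6).

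**Figure D4:**
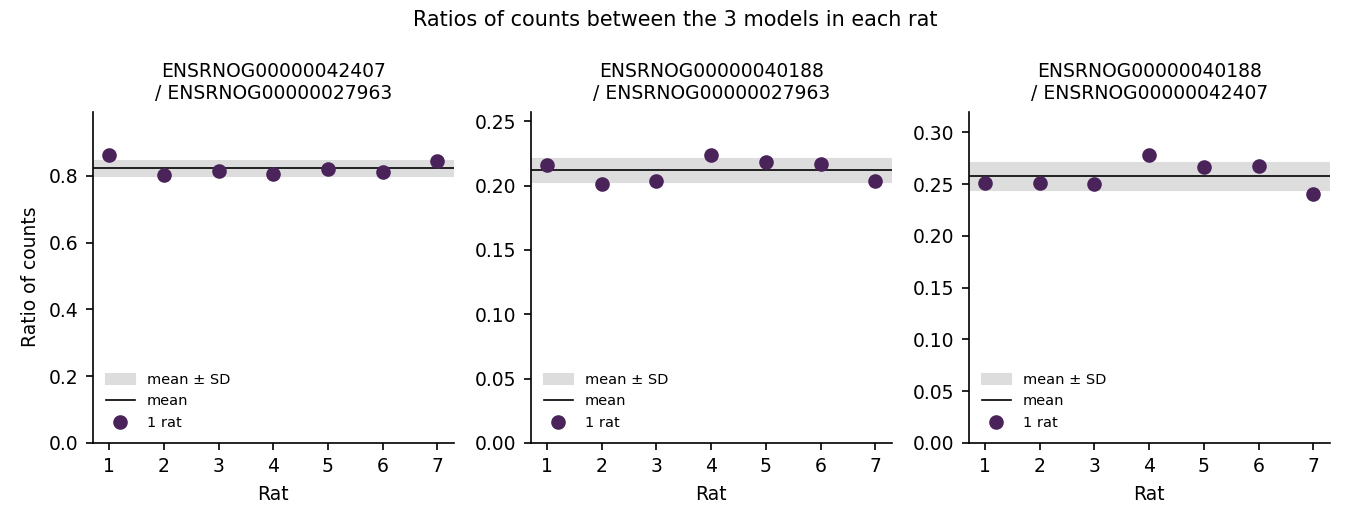
Ratio of counts for each pair of the 3 models in each of 7 rats (points), with the mean (line) and the mean ± SD (grey band), on axes that start at 0. The means are 0.823, 0.212 and 0.258, and the ratios run from 0.802 to 0.864, 0.201 to 0.224 and 0.241 to 0.278 over rats.

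The spread between rats was not used in choosing the models. The coefficient of variation of CPM was 6.21% for ENSRNOG00000027963, 5.89% for ENSRNOG00000042407 and 9.15% for ENSRNOG00000040188, against a median of 9.97% over detected models and 7.81% over the 200 models of highest mean CPM. Models this abundant make up much of the total they are divided by, which narrows the spread of their CPM. On outside CPM, which is CPM computed on the counts outside the 3 models, the coefficients were 9.0%, 8.76% and 11.8%, and the median of the 200 most abundant models was 6.76%. ENSRNOG00000027963 and ENSRNOG00000042407 thus lay below that median on one scale and above it on the other, and ENSRNOG00000040188 lay above it on both.

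The ratios were set beside the levels. Their coefficient of variation was 2.77% for ENSRNOG00000042407 to ENSRNOG00000027963, 4.25% for ENSRNOG00000040188 to ENSRNOG00000027963 and 5.08% for ENSRNOG00000040188 to ENSRNOG00000042407. Over all 7 rats these lay below the 3 coefficients of the levels, a difference that was not tested. Without rat 7 they were 2.75%, 4.22% and 4.53%, against 2.01%, 3.57% and 5.63% for the levels in CPM and 3.33%, 4.92% and 6.83% in outside CPM, in the order of the models' ranks. The ratios were thus no longer all below the levels on either scale. In outside CPM, the ratios at 4.22% and 4.53% exceeded the 3.33% of ENSRNOG00000027963. Over all 7 rats the highest ratio was 1.08-fold, 1.11-fold and 1.16-fold the lowest. The levels in outside CPM ranged over 1.31-fold, 1.34-fold and 1.44-fold in the order of the models' ranks, with rat 7 lowest in each. Without rat 7 these levels ran from 252148 to 275912, 205167 to 238251 and 51310 to 61772. The ratios then ran from 0.802 to 0.864, 0.201 to 0.224 and 0.250 to 0.278.

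Rat 7 accounted for much of the spread in level. In outside CPM, ENSRNOG00000027963 was 21.6% lower in rat 7 than the mean of the other 6 rats, ENSRNOG00000042407 19.2% lower and ENSRNOG00000040188 25.3% lower. Without rat 7 the coefficients of variation of CPM were 2.01%, 3.57% and 5.63%. The share of ENSRNOG00000027963 was the only one of the 3 past the critical value of Dixon's test for a single outlying rat (a gap to the nearest rat that is large for the whole range), which 8.39% of all detected models passed on their share. In rat 7 the summed V1R models were the highest of all rats, at 957.6 outside CPM, and the mitochondrial genome held 2.44% of the counts, also the highest. The part of these in the lower level of the 3 models was not tested.

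Whether the 3 models moved together over rats was tested on log2 of outside CPM. Pearson's r was 0.959 for ENSRNOG00000027963 and ENSRNOG00000042407 (exact permutation p = 0.00119, adjusted over 6 relations 0.00714, Spearman's rho 0.929, exact permutation p = 0.00675, adjusted 0.0405, n = 7). It was 0.962 for ENSRNOG00000027963 and ENSRNOG00000040188 (exact permutation p = 0.00278, adjusted 0.00833, rho 0.857, exact permutation p = 0.0238, adjusted 0.0476, n = 7). It was 0.943 for ENSRNOG00000042407 and ENSRNOG00000040188 (exact permutation p = 0.00417, adjusted 0.00833, rho 0.857, exact permutation p = 0.0238, adjusted 0.0476, n = 7). The 3 relations passed the threshold, and the values of each pair share the denominator of each rat. Any reads divided between the models of a pair would also enter both values, and their part was not tested.

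These relations rested in part on single rats. Without the 2 rats farthest from the median of the first model of each pair, r was 0.737, 0.714 and 0.911 (rats 3 and 7 for the first 2 pairs, rats 1 and 7 for the last, 5 rats left). Without rat 7 alone, r was 0.848, 0.889 and 0.768, with adjusted exact permutation p = 0.0917, 0.0917 and 0.136 over the remaining 6 rats, so that no call held. Without rat 3, r stayed at 0.960, 0.966 and 0.941, and the adjusted exact permutation p = 0.050, 0.0583 and 0.0583 missed the threshold as well.

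The 3 models were also set against receptor transcripts of sensory neurons, the 224 V1R models that the authors placed ahead of the rest of the annotation, summed. Their membership is by place in the annotation, since most carry an identifier only. These held 830.8 ± 121.5 outside CPM (SD, n = 7), with 621.4 in rat 6, the lowest, and 957.6 in rat 7, the highest. Pearson's r with ENSRNOG00000027963 was -0.501 (exact permutation p = 0.214, adjusted 0.214, rho -0.607, exact permutation p = 0.167, adjusted 0.167, n = 7). With ENSRNOG00000042407 it was -0.567 (exact permutation p = 0.188, adjusted 0.214, rho -0.786, exact permutation p = 0.048, adjusted 0.072), and with ENSRNOG00000040188 -0.575 (exact permutation p = 0.176, adjusted 0.214, rho -0.643, exact permutation p = 0.139, adjusted 0.167). None of the 3 passed the threshold, which 7 rats can miss for relations of this size. Without the 2 rats farthest from the median, r was 0.360, -0.334 and -0.160, so that the first changed sign. Without rat 7 alone, r was -0.321, -0.433 and -0.446 (adjusted exact permutation p = 0.539, 0.467 and 0.467).

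**Figure D5:**
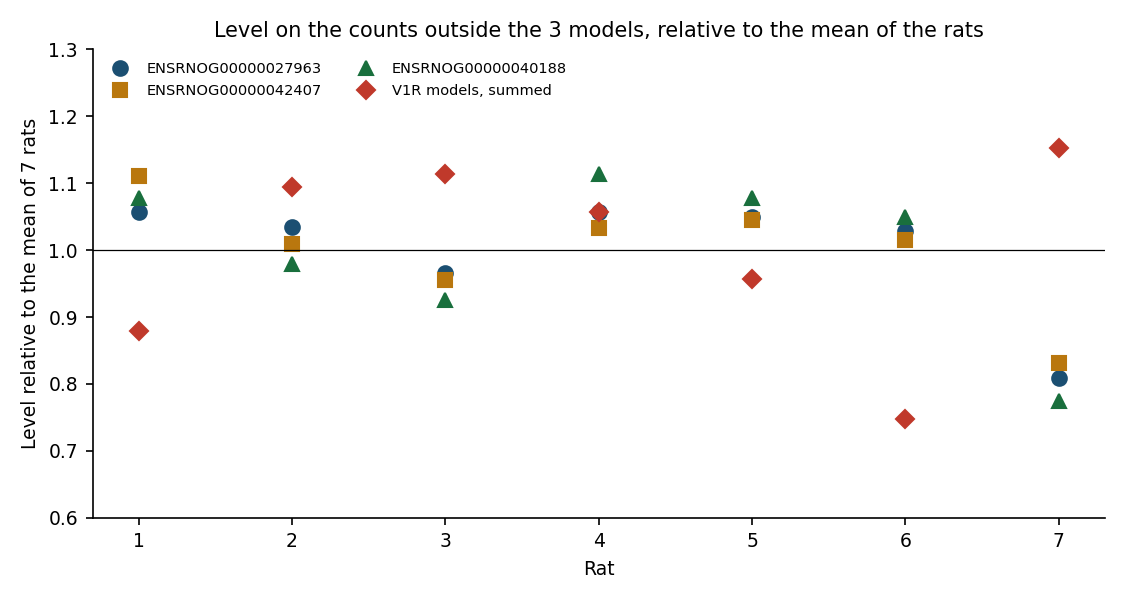
Outside CPM, relative to the mean of the 7 rats, for each of the 3 models and for the sum of 224 V1R models; each point is 1 rat. The 3 models lie close together within each rat and are lowest in rat 7, where the V1R sum is highest (957.6 outside CPM), while the V1R sum is lowest in rat 6 (621.4 outside CPM).

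The models most like each of the 3 over the 7 rats were searched among all models with a mean of at least 1000 counts, by Pearson's r on the same scale. Besides the 3 models themselves, r reached 0.9 for 0.556% of 7553 models with ENSRNOG00000027963, 1.07% with ENSRNOG00000042407 and 0.688% with ENSRNOG00000040188. Each of the 3 reached it with both others, but they were not the most alike: in the order of r among these models, the closer of the other two stood at 7 for ENSRNOG00000027963, 13 for ENSRNOG00000042407 and 7 for ENSRNOG00000040188. ENSRNOG00000043494, which has the same exon run, also reached 0.9 with all 3. The medians of r over the 7553 models were -0.285, -0.312 and -0.314.

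The highest r with ENSRNOG00000027963 belonged to ENSRNOG00000018321 on chromosome 1 (41121373–41177694, 14.8 ± 1.72 CPM, r = 0.977), ENSRNOG00000014645 on chromosome 18 (52301096–52333116, 80.7 ± 4.56 CPM, r = 0.970) and ENSRNOG00000020167 on chromosome 18 (26816126–26845083, 116.5 ± 1.86 CPM, r = 0.967). With ENSRNOG00000042407 they were ENSRNOG00000043447 on chromosome 8 (113560514–113563226, 72.4 ± 0.990 CPM, r = 0.991), ENSRNOG00000014365 on chromosome 5 (60506174–60546285, 118.2 ± 10.1 CPM, r = 0.980) and ENSRNOG00000003969 on chromosome 10 (99113846–99170601, 19.2 ± 2.20 CPM, r = 0.977). ENSRNOG00000014645 stood first for ENSRNOG00000040188 (r = 0.994), followed by ENSRNOG00000012236 on chromosome 1 (136161425–136163710, 51.1 ± 2.86 CPM, r = 0.989) and ENSRNOG00000028711 on chromosome 7 (114552056–114562425, 18.4 ± 0.290 CPM, r = 0.967). All 8 were lowest in rat 7 on this scale, and without that rat their r with the model in question lay between 0.793 and 0.981. Outside CPM is CPM times the total over the counts outside the 3 models (1.43 in rat 7, 1.57 in rat 1). The 3 models set this factor, so that a model with nearly the same CPM in all rats follows them by construction. ENSRNOG00000043447, ENSRNOG00000020167 and ENSRNOG00000028711 had such a small SD in CPM, and the part of this factor in their r was not tested. None of the 8 lies on chromosome 3.

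The 3 other abundant models with the same exon run had a range of likeness. ENSRNOG00000043494 had r of 0.961, 0.974 and 0.949 with the models of rank 1, 2 and 4, ENSRNOG00000030708 had 0.865, 0.847 and 0.939, and ENSRNOG00000026208 had 0.858, 0.811 and 0.929, over 7 rats in each case and all 3 lowest in rat 7. Without rat 7 these values fell to between 0.470 and 0.891. They are given as a description of these libraries, with no test, and the part of reads divided among these models is not known.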

How the data were processed

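RNA-seq of vomeronasal epithelium from 7 rats was analysed, 1 library per rat and all in 1 group by their tissue label. The aligner was STAR 2.7.1a and the counter featureCounts 1.6.5 per the submitters' processing notes, or featureCounts 1.6.3 per the file headers. The authors deposited estimated counts for gene models of Ensembl 67 (RGSC3.4), to which they had added models of their own, per the file headers. Counting used exons, was strand-specific in the reversely stranded mode (setting 2) and accepted any mapping quality (0). Each read with several placements was divided among them. A length column, which the authors deposited beside the counts, gives exon bases. No identifier (0) could be matched to a symbol in the RefSeq table, so no list of cell type markers could be checked.

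From these counts, CPM, RPKM and outside CPM (scaled to the counts outside the 3 models) were computed with Python 3.11.15, numpy 2.4.6, scipy 1.17.1, pandas 2.3.3 and statsmodels 0.14.6. Figures were drawn with matplotlib 3.10.9. Detection required 10 or more counts in at least 4 rats. Library scaling by edgeR 4.0.16 TMM and DESeq2 1.42.0 size factors (R 4.3.3, counts rounded to whole numbers) served as alternatives. Relations over rats were tested by exact permutation of all 5040 pairings, two-sided, with Benjamini-Hochberg adjustment over 6 relations at 0.05. The models named besides the 3 are those ranked 3 and 5, the neighbours, the 3 most alike over rats for each, and those with matching internal exons. The models and these choices were made with earlier results of these data known. The search for the shared exon run was added after the exons had been seen. The steps were tested on simulated data.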

Additional observations from a re-analysis of the deposited data

Results flagged for a closer look

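Dixon's test for a single outlying animal was run on 19 values of the 3 models and the V1R sum, and 2 passed it, both the level of ENSRNOG00000027963 in rat 7. As a share of all counts it was 14.7% there, while the other 6 rats had 16.7% to 17.7%, and the gap made up 0.672 of the range over all rats. In outside CPM it was 211061, while the others had 252148 to 275912, and the gap made up 0.634 of the range. Chance flags about 1 in 20 such values, and these 2 are the same measurement on different scales. Of 1398 detected models past the same critical value on their share, 625 had rat 7 as the outlying rat, 616 of them as the highest, and 447 had rat 1. In outside CPM, rat 1 was the outlying rat in 622 of 1302, rat 6 in 304 and rat 7 in 147.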

How the results depend on the processing

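No paired analysis was possible because all rats belong to 1 group. Mean CPM rose to 313971, 258220 and 66718 for the models of rank 1, 2 and 4 with the total taken without the 10 most abundant models, and to 260985, 214638 and 55437 without the 3 models themselves, by the smaller total alone. Leaving out each rat gave 169082 to 173990, 138074 to 142547 and 35542 to 37144. By RPKM the rank of ENSRNOG00000040188 became 3. The coefficient of variation became 10.2%, 10.2% and 13.1% with TMM and 10.4%, 10.4% and 13.2% with DESeq2 size factors. Without the 3 models in the total, where they no longer make up part of what they are divided by, it became 9.0%, 8.76% and 11.8%. For TMM and DESeq2 size factors the cause was not tested. With each rat left out the coefficient ranged over 2.01% to 6.75%, 3.57% to 6.45% and 5.63% to 9.92%, lowest without rat 7. Ratios per length were 0.861, 0.301 and 0.350, by their construction, and with each rat left out the count ratios stayed at 0.816 to 0.826, 0.210 to 0.214 and 0.254 to 0.261. The relations among the 3 models stayed past the threshold under the 4 other scalings, with r from 0.888 to 0.971, and with each rat left out r lay between 0.848 and 0.995, 0.889 and 0.986, and 0.768 and 0.971, losing the call without rat 3 or rat 7; the cause was not tested. Relations with the V1R sum stayed negative and missed the threshold under these scalings, with the 5 named V1R models and with each rat left out, but that of ENSRNOG00000027963 turned to 0.360 without the 2 farthest rats. Depth was not varied.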
